A study of Mus musculus with 16 samples.

Results

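The genes described here are 10 genes grouped under the label of neural progenitor and glial identity. They were chosen by symbol from the tables of raw counts, and all 10 were found among the 54658 genes listed. They are the progenitor filament genes Nes (nestin) and Vim (vimentin), the Sox transcription factor genes Sox2, Sox4, Sox9 and Sox11, the Id genes Id1, Id2 and Id3, and Gfap, which encodes the astrocyte filament. Of these, 9 exceeded the minimum average of 10 CPM, which are the counts of a library scaled to a common library size, and were tested among 9757 genes. Gfap did not and was described by its values only.

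The libraries come from C17.2α cells, a mouse neural line established from the cerebellum and engineered to overexpress TRα1, the thyroid hormone receptor. All groups, the DMSO controls included, were grown in newborn calf serum stripped of thyroid hormones with charcoal. They received no added T3 and were lysed after 24 h. From its reporter assays, the paper proposes that such serum may keep a little T3. Cells were given the solvent DMSO (2 libraries) or a strobilurin, a fungicide directed at the mitochondrial cytochrome bc1 complex. Picoxystrobin, pyraclostrobin and trifloxystrobin were each used at 30, 100, 300 and 1000 nM with 1 library per concentration, so the 4 concentrations of a compound stand in for its replicates and their spread includes any response to concentration. According to the paper, all libraries of this strobilurin series came from a single experiment. Nothing in the labels states whether they came from separate cultures. The p-values measure only the spread between these libraries, not that between independent experiments. A line that overexpresses a transgenic receptor is a limited model of progenitors in the brain.

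Of the 16 libraries, the one labelled azoxystrobin at 100 nM held the same counts as the second DMSO library for every gene and was left out. The 15 distinct libraries held between 12292390 and 18188099 counts. Azoxystrobin was then represented by a single library at 1000 nM, for which values are given without a test. The picoxystrobin library at 1000 nM stood apart from the other 3 of its compound. Across genes, the log2 change from DMSO correlated with the GC content of the transcript with r = 0.201 in this library, and with r between -0.738 and -0.634 in the picoxystrobin libraries at 30 to 300 nM (between -0.39 and -0.0635 in the other exposed libraries). Values without it are given for the members named below where leaving it out changes a call or turns a direction. In bulk libraries, fewer cells expressing a gene and less RNA per cell cannot be told apart.

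Nestin and vimentin are intermediate filaments of dividing neural precursors, and GFAP replaces them as the main filament in mature astrocytes. SOX2 maintains the progenitor state, SOX4 and SOX11 act later in the neuronal lineage, and SOX9 is required for the onset of gliogenesis and remains in astrocytes. The ID proteins lack a DNA-binding domain and hold E proteins away from proneural factors. Their genes are classical targets of BMP signalling through SMAD factors.

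The progenitor and glial label was compared with marker genes. Among 9 progenitor markers, Nes, Vim, Sox2 and Msi2 exceeded 10 CPM, and Prom1, Pax6 and Slc1a3 stayed below 1 CPM in every library. Msi1 and Fabp7 did not exceed the minimum either. Nes, Vim and Sox2 are members themselves, so Msi2 was the only progenitor marker outside the members to exceed it. Among 8 astrocyte markers, S100b, Aldoc, Glul and Gja1 exceeded 10 CPM, whereas Aqp4 and Aldh1l1 stayed below 1 CPM. Of 10 neuronal markers, 7 stayed below 1 CPM, among them Dcx, Rbfox3 and Stmn2, while Tubb3 (11.7 to 30.6 CPM) and Map2 (108 to 161 CPM) were tested. All 5 microglial and all 4 endothelial markers stayed below 1 CPM. Of 8 oligodendrocyte lineage markers, Sox10 (154 to 287 CPM), Cnp (51.2 to 92.8 CPM) and Pdgfra (14.5 to 23.2 CPM) were tested, and Olig1 and Mog stayed below 1 CPM. The cells thus carried the progenitor filament genes and Sox2, which are members, with Msi2 and a partial set of glial transcripts. The progenitor side of the label does not extend to most progenitor markers outside the members. The astrocyte side does not extend to Gfap, Aqp4 or Aldh1l1. Thra, which encodes TRα1, was measured at 52.7 to 86.5 CPM. The summed CPM of the astrocyte markers was 403 to 410 in DMSO, 394 to 450 with picoxystrobin, 331 to 397 with pyraclostrobin and 368 to 417 with trifloxystrobin. The summed CPM of the oligodendrocyte lineage markers was 315 to 345 in DMSO, 233 to 400 with picoxystrobin, 297 to 333 with pyraclostrobin and 275 to 367 with trifloxystrobin. The part of these shifts in the results below was not tested.

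**Figure D1:**
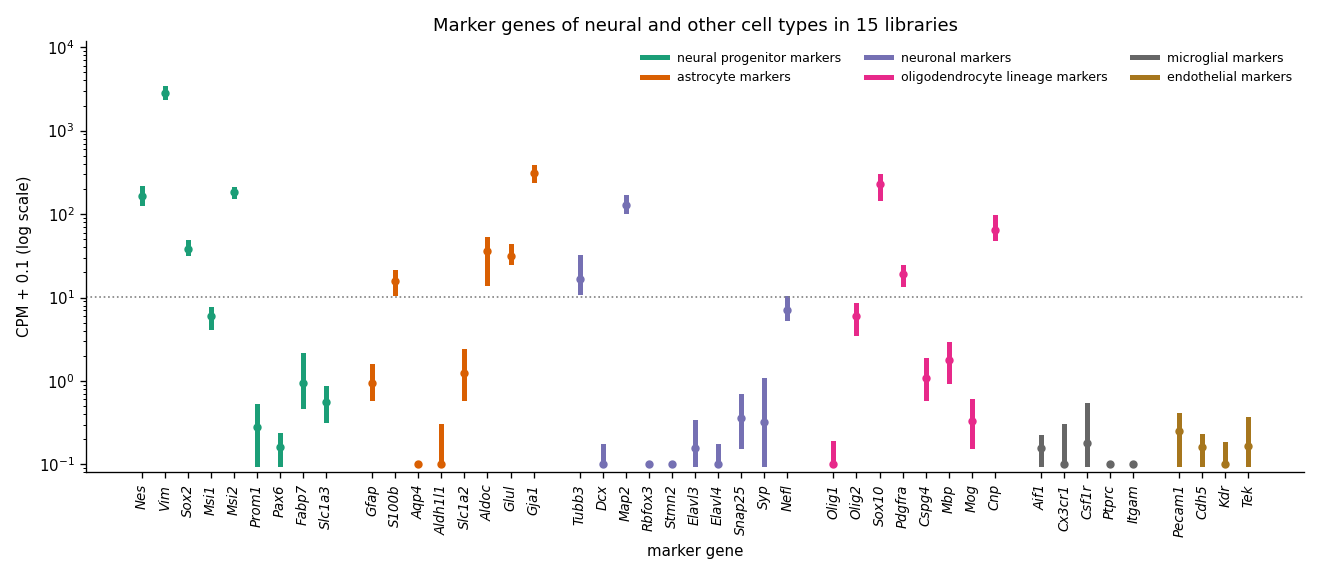
Range (bars) and median (points) of the CPM of marker genes over the 15 distinct libraries, on a log axis after adding 0.1. The dotted line marks the minimum of 10 CPM, which Nes, Vim, Sox2, Msi2, Gja1 and Sox10 exceed and Gfap, Aqp4 and Dcx do not.

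Levels can be compared between genes only per length. Per kilobase of exons of coding transcripts, the mean level over the 15 libraries was 1283 CPM per kb for Vim, 26.9 for Nes, 26.2 for Id3, 19.3 for Sox2, 14.0 for Sox4, 9.9 for Id1, 8.01 for Sox11, 6.78 for Id2, 5.74 for Sox9 and 0.221 for Gfap. Vim (1129 to 1450 CPM per kb) lay above all other members in all libraries, and Gfap (0.13 to 0.341) lay below them. The ranges of Nes (22.3 to 33.1), Id3 (17.7 to 34.9) and Sox2 (16.6 to 22.8) overlapped. That of Sox4 (10.8 to 16.9) overlapped those of Sox2 and Id1 (7.05 to 12.0). The ranges of Id1, Sox11 (5.19 to 9.83), Id2 (4.45 to 9.86) and Sox9 (3.93 to 8.31) overlapped as well. Ranges over libraries do not order these genes, and their order within each library was not compared.

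The stretches upstream of Sox11 and Nes are shown because, with pyraclostrobin, Sox11 fell with concentration and Nes was the member that lay above DMSO. Both come from RefSeq promoter windows (GRCm38.p6), 5′ to 3′ on the strand of the gene, without any annotated exon. Here the start is that of RefSeq, which differs from the GENCODE gene bounds given with the values. The Sox11 stretch is chr12:27342719-27342968 on the minus strand, the 250 bases before the RefSeq start. The Nes stretch is chr3:87970843-87971077 on the plus strand, 235 bases that end 15 bases before the RefSeq start, where the GENCODE gene begins. Capitals mark matches, on either strand, to the GC box GGGCGG, the CCAAT box, the TATA box TATAAA or the E-box CANNTG, which E proteins bind.
Sox11: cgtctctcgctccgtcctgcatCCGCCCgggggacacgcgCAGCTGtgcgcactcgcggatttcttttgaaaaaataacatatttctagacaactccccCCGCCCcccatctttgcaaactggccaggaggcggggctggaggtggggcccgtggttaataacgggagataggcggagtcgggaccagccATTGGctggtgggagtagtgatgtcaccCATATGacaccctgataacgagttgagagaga
Nes: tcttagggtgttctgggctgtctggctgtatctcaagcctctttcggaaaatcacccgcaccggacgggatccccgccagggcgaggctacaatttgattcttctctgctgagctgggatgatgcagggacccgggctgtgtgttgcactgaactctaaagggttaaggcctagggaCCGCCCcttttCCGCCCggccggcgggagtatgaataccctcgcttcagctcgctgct
The Sox11 stretch held 2 GC boxes, 1 CCAAT match and 2 E-boxes. The Nes stretch held 2 GC boxes and no other match. In the 250 bases before the start, 8 members had an entry: GC boxes were in 5 of them (Nes, Sox2, Sox11, Id2 and Id3), CCAAT in 5 (Vim, Sox2, Sox4, Sox11 and Id2), TATAAA in 1 (Vim) and an E-box in 3 (Sox4, Sox11 and Id2). Of 32851 RefSeq windows of this length, 32.7% held GGGCGG, 33.8% CCAAT, 12.4% TATAAA and 66.2% CANNTG. Sox9 and Id1 had no entry. These counts took the whole window, annotated exons included. Counted from the far end of the window, the stretch free of exons was 0 bases for Vim and Id3 and 89 bases for Id2. Whether their matches lie in exons was not determined. A match describes the letters only.

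Across the compounds, the lower values were found for Sox9, Sox11 and Id3. In all 12 libraries of picoxystrobin, pyraclostrobin and trifloxystrobin these 3 members lay below both DMSO libraries, which was the case for 3.92% of the genes tested. No member lay above both DMSO libraries in all 12 (3.42% of the genes tested). By compound, Sox9, Sox11 and Id3 lay below DMSO in all 4 picoxystrobin libraries (12.6% of the genes tested) and Nes and Id2 above it (13.8%). For pyraclostrobin Vim, Sox4, Sox9, Sox11 and Id3 lay below (20.1%) and Nes above (21%), and for trifloxystrobin Sox4, Sox9, Sox11 and Id3 lay below (7.85%) and none above (8%). All compounds share the same 2 DMSO libraries, so these positions are not independent.

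**Figure D2:**
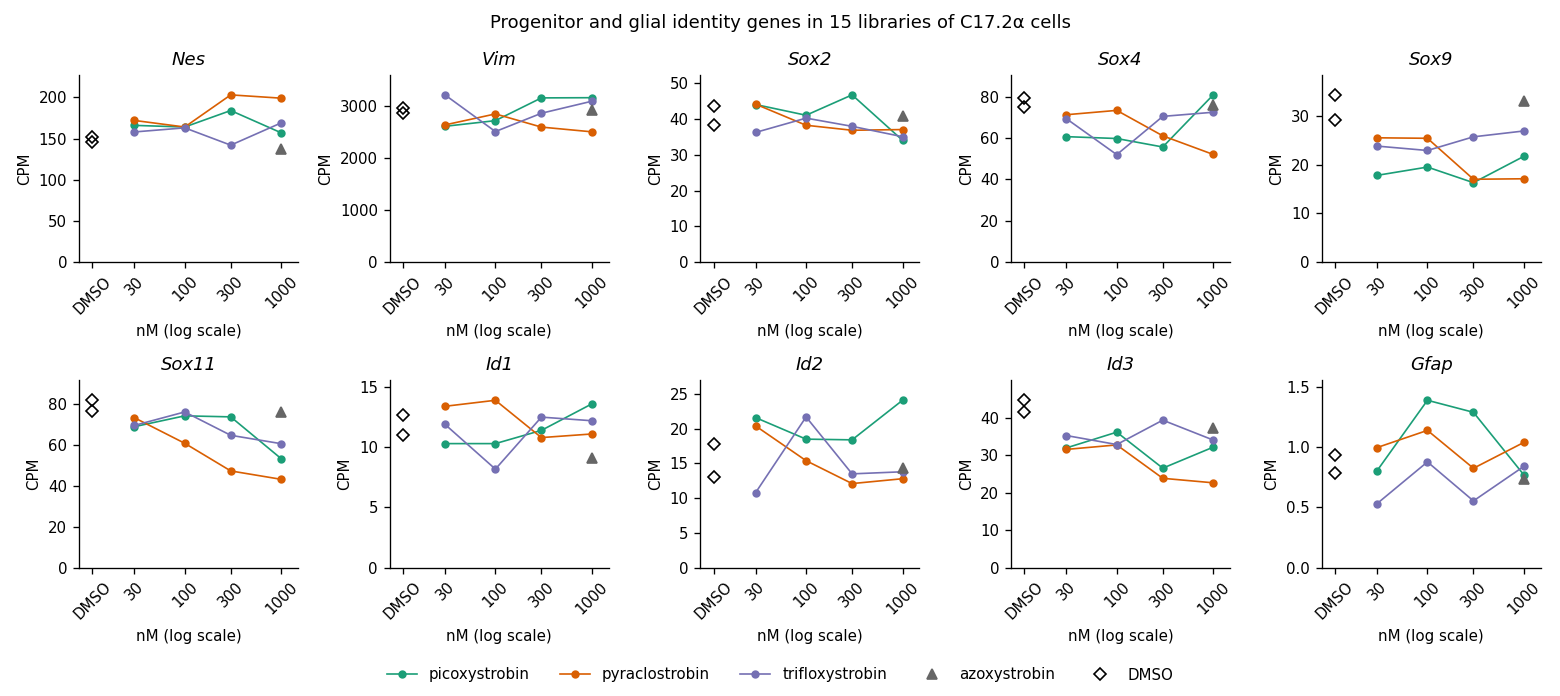
CPM of the 10 members in each of the 15 libraries, by concentration on a log axis, with the 2 DMSO libraries as open diamonds on the left and azoxystrobin as a triangle. Each point is 1 library and lines join the concentrations of a compound. All 12 points of picoxystrobin, pyraclostrobin and trifloxystrobin lie below both DMSO points for Sox9, Sox11 and Id3, and Sox11 descends from 73.2 to 43.1 CPM with pyraclostrobin.

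Sox9 (chromosome 11, 112782224 to 112787760, plus strand, GRCm38, 3 exons) encodes the factor that opens gliogenesis. It was measured at 34.3 and 29.2 CPM in DMSO and at 33.0 CPM with azoxystrobin at 1000 nM. With picoxystrobin at 30, 100, 300 and 1000 nM it was at 17.8, 19.5, 16.3 and 21.7 CPM. With pyraclostrobin it was at 25.5, 25.4, 17.0 and 17.1 CPM, and with trifloxystrobin at 23.8, 22.9, 25.7 and 26.9 CPM. The azoxystrobin value lay between the DMSO values, whereas no library of the other compounds overlapped DMSO, and pyraclostrobin at 300 and 1000 nM lay as low as picoxystrobin. Against DMSO the log2 difference with picoxystrobin was -0.76, with pyraclostrobin -0.58 and with trifloxystrobin -0.36, each with an SE of 0.171. None passed edgeR's quasi-likelihood test after adjustment (adjusted p = 0.117, 0.0765 and 1.0). The call depends on the tool: with DESeq2 the adjusted p was 0.00904 for picoxystrobin, where 2.4% of all genes were called, and 0.0273 for pyraclostrobin, where 9.57% were. Without the filter on low counts Sox9 was called for both as well (0.681% and 3.87% of all genes). Without the picoxystrobin library at 1000 nM, Sox9 was called for picoxystrobin (log2 -0.83, adjusted p = 0.00645 by edgeR's test), in a fit that called 27.7% of all genes.

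Id3 (chromosome 4, 136143497 to 136145755, plus strand, 3 exons) encodes an inhibitor of E proteins. It was measured at 41.6 and 44.6 CPM in DMSO and at 37.1 CPM with azoxystrobin. With pyraclostrobin at 30, 100, 300 and 1000 nM it was at 31.5, 32.7, 23.8 and 22.6 CPM, a mean of 27.6 ± 5.18 CPM (SD, n = 4) against 43.1 ± 2.1 CPM (SD, n = 2) in DMSO. Picoxystrobin gave 31.9, 36.1, 26.5 and 32.1 CPM, and trifloxystrobin 35.2, 32.8, 39.3 and 34.0 CPM. Every exposed library lay below both DMSO libraries, those of pyraclostrobin at 300 and 1000 nM lowest. With pyraclostrobin Id3 fell to 0.641 of its DMSO level (log2 -0.64, SE 0.151, adjusted p = 0.0472 by edgeR's quasi-likelihood test). It was the single member of 9 called for pyraclostrobin, where 1.71% of all genes were called and 1.22% were called lower. The call was lost without either DMSO library (adjusted p = 0.394 and 0.288), without pyraclostrobin at 300 or 1000 nM (0.155 and 0.12), and in a fit of the DMSO and pyraclostrobin libraries alone (0.112). In these 5 fits the log2 difference of Id3 was between -0.68 and -0.55, and 0 or 1 of all 9757 genes were called in each. It was also made with RLE size factors (1.84% of all genes called) and with a correction for GC content and length (1.78%). Without pyraclostrobin at 30 nM, Sox9 and Sox11 were called beside Id3 (5.37% of all genes), and without 100 nM Sox9 and Nes were (9.23%). For picoxystrobin the log2 difference was -0.44 (SE 0.151, adjusted p = 0.177), and for trifloxystrobin it was -0.29 (SE 0.151, adjusted p = 1.0), with neither called by edgeR's test.

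Sox11 (chromosome 12, 27334264 to 27342574, minus strand, 1 exon) encodes a factor of the SOXC group, to which SOX4 also belongs. It was measured at 81.7 and 76.3 CPM in DMSO and at 76.0 CPM with azoxystrobin. With pyraclostrobin at 30, 100, 300 and 1000 nM it was at 73.2, 60.7, 47.2 and 43.1 CPM. With picoxystrobin it was at 68.8, 74.1, 73.6 and 53.2 CPM, and with trifloxystrobin at 69.4, 76.0, 64.6 and 60.5 CPM. The level stepped down at each concentration of pyraclostrobin, and the lowest value of the other 2 compounds was also at 1000 nM. The slope for pyraclostrobin was -0.52 log2 units per 10-fold concentration (SE 0.116, adjusted p = 0.0393 by edgeR's quasi-likelihood test). Sox11 was the single member of 9 with a called trend for pyraclostrobin, where 3.17% of all genes were called and 1.52% were called with a falling trend. The slope was -0.22 for picoxystrobin and -0.17 for trifloxystrobin, and neither was called (adjusted p = 0.44 and 1.0 by edgeR's test). The picoxystrobin slope became 0.06 without the library at 1000 nM and -0.48 without that at 30 nM. The call was also made by DESeq2 (7.57% of all genes called), with RLE factors (3.28%), without the filter (4.04%), with the GC content and length correction (8.7%) and in a fit of the pyraclostrobin libraries alone (13.7%). It was lost without any 1 of the 4 libraries (adjusted p between 0.0746 and 0.57, slopes between -0.63 and -0.49), in fits that called between 0 and 96 genes of all. Against DMSO the log2 difference with pyraclostrobin was -0.5 (SE 0.179, adjusted p = 0.114).

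Sox4 (chromosome 13, 28948919 to 28953713, minus strand), the other SOXC gene, was at 79.3 and 75.2 CPM in DMSO and at 76.0 CPM with azoxystrobin. With pyraclostrobin it was at 71.3, 73.4, 61.1 and 52.1 CPM in order of concentration. With picoxystrobin it was at 60.7, 59.8, 55.7 and 80.9 CPM, and with trifloxystrobin at 69.4, 52, 70.5 and 72.5 CPM. All libraries of pyraclostrobin and trifloxystrobin and 3 of 4 of picoxystrobin lay below DMSO, and picoxystrobin at 1000 nM lay above it. The log2 differences of -0.27, -0.26 and -0.23 for picoxystrobin, pyraclostrobin and trifloxystrobin were not called, and for picoxystrobin the value was -0.39 without the library at 1000 nM (adjusted p = 0.0582 by edgeR's test). Sox2 (chromosome 3, 34650405 to 34652461, plus strand), the progenitor factor, stayed between 34.1 and 46.8 CPM in all libraries, with 43.6 and 38.4 CPM in DMSO. Its 95% confidence intervals of the log2 difference from DMSO ran from -0.24 to 0.28 for picoxystrobin, from -0.33 to 0.2 for pyraclostrobin and from -0.39 to 0.13 for trifloxystrobin. Sox2 lies within Sox2ot, which was counted at 6 to 26 reads.

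The progenitor filament gene Nes (chromosome 3, 87971078 to 87980451, plus strand, 4 exons) was at 146 and 152 CPM in DMSO and at 137 CPM with azoxystrobin. With pyraclostrobin it was at 172, 164, 203 and 199 CPM. With picoxystrobin it was at 166, 164, 184 and 157 CPM, and with trifloxystrobin at 158, 163, 142 and 169 CPM. Every library of pyraclostrobin and picoxystrobin lay above both DMSO libraries, as did 3 of 4 of trifloxystrobin, and azoxystrobin lay below them. The log2 difference was 0.3 for pyraclostrobin (SE 0.105, adjusted p = 0.105), 0.17 for picoxystrobin (SE 0.105, adjusted p = 0.372) and 0.08 for trifloxystrobin (SE 0.104, adjusted p = 1.0), none called by edgeR's test. With the GC content and length correction the values were 0.54 (pyraclostrobin, adjusted p = 0.0857), 0.43 (picoxystrobin, 0.313) and 0.17 (trifloxystrobin, 1.0), also uncalled. With pyraclostrobin at 300 and 1000 nM alone against DMSO, Nes was called (log2 0.43, adjusted p = 0.0135) together with Id3 (-0.89), Sox11 (-0.81) and Sox9 (-0.9), and 25.6% of all genes were called in this fit of edgeR's test.

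Vim (chromosome 2, 13573927 to 13582826, plus strand), the most abundant member, was at 2863 and 2961 CPM in DMSO, at 2932 CPM with azoxystrobin and at 2638, 2849, 2596 and 2505 CPM with pyraclostrobin. The pyraclostrobin libraries all lay below DMSO, by little: the log2 difference was -0.14, with a 95% confidence interval from -0.38 to 0.11. With picoxystrobin Vim ranged from 2611 to 3161 CPM and with trifloxystrobin from 2510 to 3215 CPM, on both sides of DMSO. Gfap (chromosome 11, 102887336 to 102900912, minus strand) stayed between 0.531 and 1.39 CPM, on 7 to 25 reads per library. Its ranges overlapped between DMSO (0.785 and 0.936 CPM) and all 3 compounds, and no response of the astrocyte filament was detectable at this depth. An antisense gene on the opposite strand, Gm26668, had 5 to 16 reads, and without knowing whether counting used the strand these cannot be set apart.

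Id2, another inhibitor of E proteins (chromosome 12, 25093799 to 25097140, minus strand), was at 17.8 and 13.1 CPM in DMSO, 14.3 CPM with azoxystrobin and 21.6, 18.5, 18.4 and 24.1 CPM with picoxystrobin. With pyraclostrobin it was at 20.4, 15.4, 12.1 and 12.8 CPM, and with trifloxystrobin at 10.8, 21.7, 13.5 and 13.8 CPM. Every picoxystrobin library lay above both DMSO libraries, whereas the other compounds overlapped DMSO. The log2 difference for picoxystrobin was 0.42 with a wide 95% confidence interval from -0.13 to 0.96. It was 0.65 without the first DMSO library, 0.21 without the second and 0.23 with the GC content and length correction, uncalled in each. Id1 (chromosome 2, 152736251 to 152737410, plus strand) stayed between 8.18 and 13.9 CPM, with 11 and 12.7 CPM in DMSO, and its log2 differences from DMSO were between -0.09 and 0.05.

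Taking the 9 tested members by compound, edgeR's test called 0 for picoxystrobin (0.041% of all genes called), and 2 members, Sox9 and Id3, had an unadjusted p under 0.05 (19.2% of all genes). DESeq2 called 1 of them, Sox9 (2.4% of all genes). EdgeR's test called 1 for pyraclostrobin (1.71% of all genes), and DESeq2 2, Id3 and Sox9 (9.57% of all genes), with 4 members at an unadjusted p under 0.05 (25.8% of all genes). EdgeR's test called 0 for trifloxystrobin (0% of all genes called), with 0 at an unadjusted p under 0.05 (1.23% of all genes) and 0 by DESeq2. Across members the median log2 difference was -0.06 (picoxystrobin), -0.14 (pyraclostrobin) and -0.13 (trifloxystrobin), and across all genes tested it was 0.02, 0.02 and 0.00. The lowest value was that of Sox9 for picoxystrobin and trifloxystrobin and that of Id3 for pyraclostrobin.

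**Figure D3:**
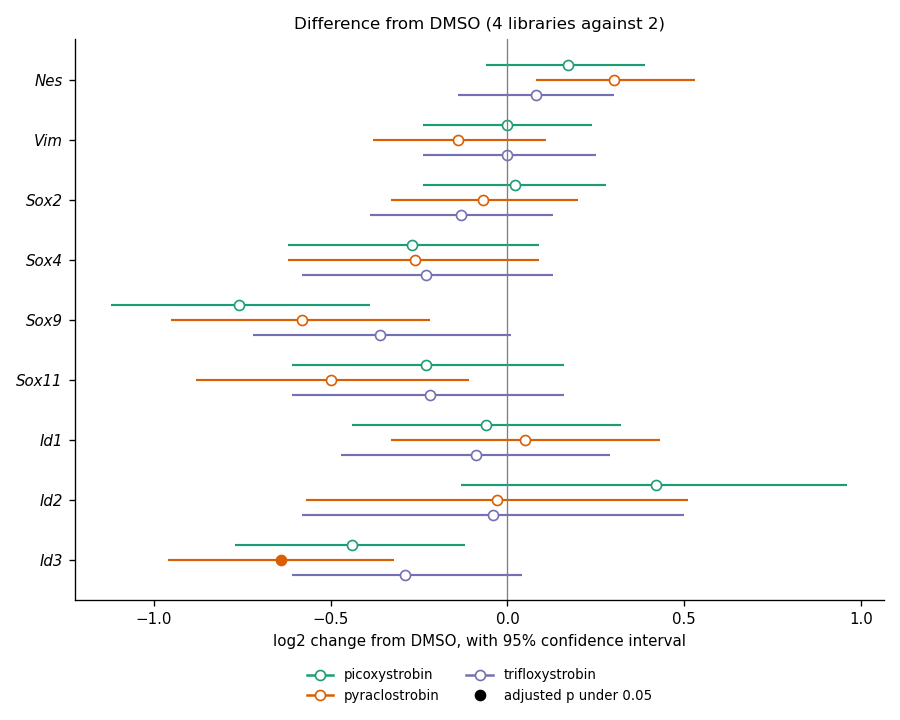
Log2 change from DMSO of the 9 tested members for picoxystrobin, pyraclostrobin and trifloxystrobin (points) with 95% confidence intervals (bars). The values come from 1 fit of all 15 libraries, in which 4 libraries of a compound are compared with 2 of DMSO. A filled point is called, which is Id3 for pyraclostrobin only, at -0.64. The uncalled intervals that exclude 0 are those of Sox9 and Id3 for picoxystrobin and of Sox9, Sox11 and Nes for pyraclostrobin.

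With concentration, 8 of the 9 members had a negative slope for pyraclostrobin, and the median was -0.32 log2 units per 10-fold concentration against 0.00 for all genes. Nes was the exception, with a slope of 0.18 (95% confidence interval -0.04 to 0.41). At an unadjusted p under 0.05 by edgeR's test there were 3 members (21.6% of all genes). The share of all genes with a negative slope was not determined. Beside Sox11, the steepest slopes were those of Id2 at -0.47, Sox9 at -0.45 and Id3 at -0.37, which edgeR's test did not call (adjusted p = 0.292, 0.0918 and 0.144). With the 300 and 1000 nM libraries of pyraclostrobin set against those at 30 and 100 nM, Sox9 and Id3 were called as well (log2 -0.58 and -0.47, adjusted p = 0.0318 and 0.0446), and 7.62% of all genes were. For picoxystrobin and for trifloxystrobin edgeR's test called 0 members and 0% of all genes, with 0 members at an unadjusted p under 0.05 (12.6% and 0.83% of all genes) and 0 by DESeq2. Median slopes of the members were 0.1 and 0.02, and those of all genes 0.03 and 0.00. Vim, Sox4 and Id1 had picoxystrobin slopes of 0.21, 0.24 and 0.27, none called. Without the picoxystrobin library at 1000 nM the slopes turned for Nes (-0.01 to 0.12), Sox2 (-0.18 to 0.05), Sox4 (0.24 to -0.16), Sox9 (0.13 to -0.15), Sox11 (-0.22 to 0.06) and Id2 (0.1 to -0.27), none called in either fit.

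**Figure D4:**
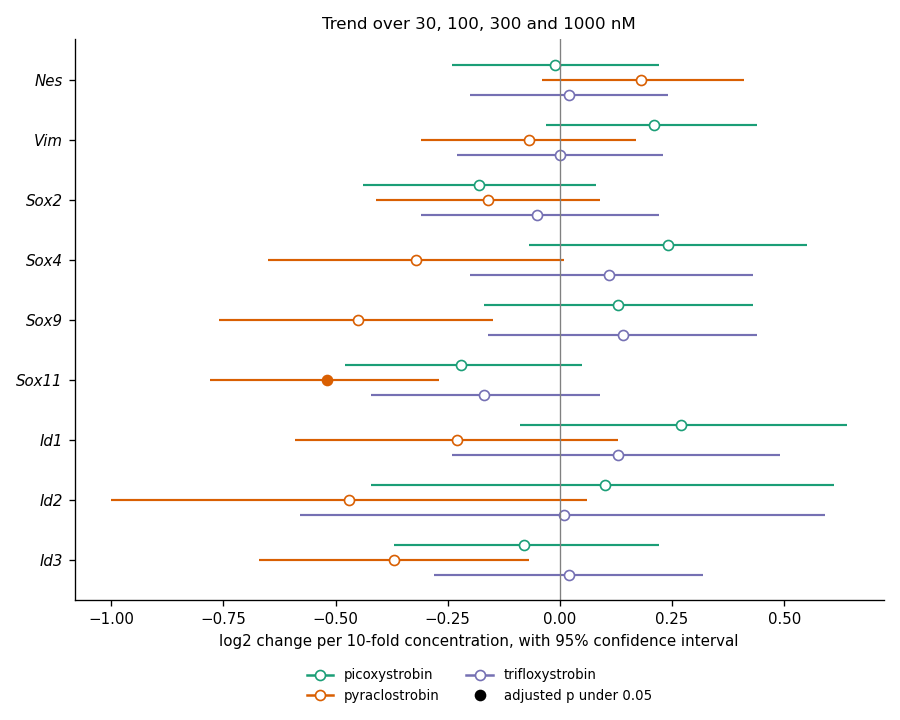
Slope of the 9 tested members on concentration, as log2 change per 10-fold increase (points) with 95% confidence intervals (bars), for 3 compounds with 4 libraries each. The values come from 1 fit of all 15 libraries. Pyraclostrobin slopes lie below 0 for all members but Nes, and the filled point, Sox11 at -0.52, is the one called.

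The compounds differ in the strobilurin toxophore, and in the rest of the molecule. The toxophore is a methoxyacrylate in picoxystrobin, a methoxycarbamate in pyraclostrobin and an oximinoacetate in trifloxystrobin. They were compared at matched concentrations, without DMSO, for 3 pairs of compounds and 9 members, 27 differences in all, with p-values adjusted over all genes tested. EdgeR's test called 0 members for each pair, and 0.0205% of all genes between pyraclostrobin and picoxystrobin, 0.0307% between pyraclostrobin and trifloxystrobin, and 0% between picoxystrobin and trifloxystrobin. DESeq2 called 0 members as well, but gave no adjusted p for Sox9, Id1 and Id2 between pyraclostrobin and picoxystrobin, nor for Id1 between pyraclostrobin and trifloxystrobin. At an unadjusted p under 0.05 there were 2, 3 and 2 members (11.6%, 17.9% and 8.64% of all genes).

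Between pyraclostrobin and picoxystrobin the widest differences were those of Id2, at -0.46 (95% confidence interval -0.92 to 0.00, adjusted p = 0.428 by edgeR's test), and Sox11, at -0.28 (interval -0.53 to -0.03, adjusted p = 0.389). Pyraclostrobin gave lower values of Sox11 than picoxystrobin at 100, 300 and 1000 nM but not at 30 nM. Between pyraclostrobin and trifloxystrobin, Id3 differed by -0.38 (interval -0.66 to -0.09, adjusted p = 0.216), Sox11 by -0.3 (interval -0.55 to -0.05, adjusted p = 0.231) and Nes by 0.21 (interval 0.00 to 0.43, adjusted p = 0.276), none called by edgeR's test. Between picoxystrobin and trifloxystrobin, Sox9 differed by -0.41 (interval -0.75 to -0.08) and Id2 by 0.47 (interval 0.01 to 0.92), both with adjusted p = 0.555. Picoxystrobin had the lower Sox9 value at each of the 4 concentrations. Without 1000 nM the difference between picoxystrobin and trifloxystrobin turned for Sox11 (-0.02 to 0.05) and Id1 (0.03 to -0.02), and that of Id2 between pyraclostrobin and picoxystrobin was -0.3, none called. The intervals of Vim, between -0.37 and 0.22 over the 3 pairs, and of Sox2, between -0.3 and 0.36, bound the differences of these 2 members. A p that misses the threshold does not show that the compounds act alike.

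**Figure D5:**
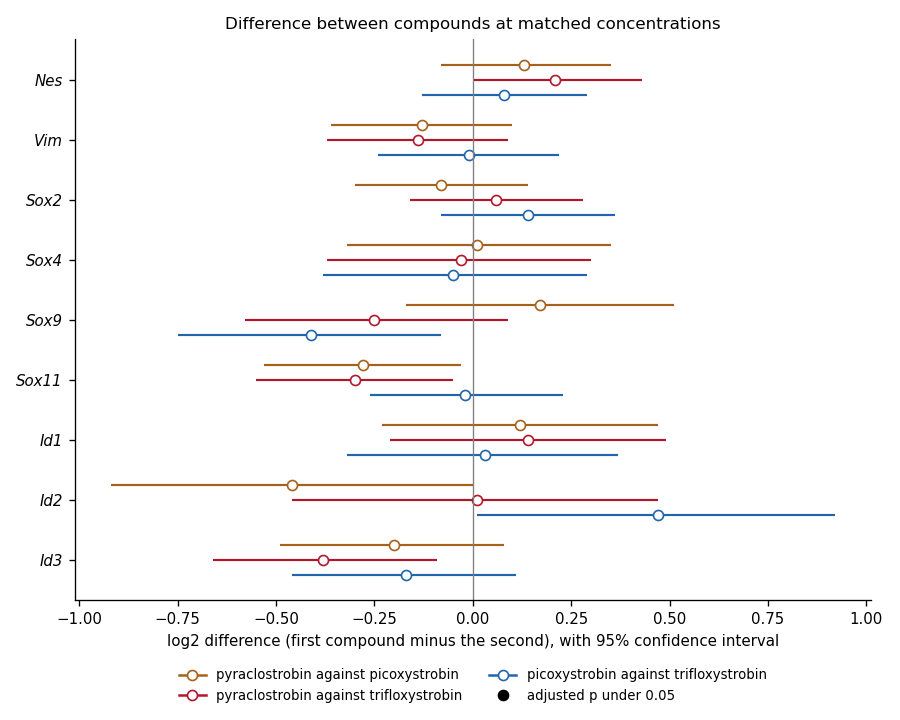
Log2 difference of the 9 tested members between compounds at matched concentrations (points, the first compound minus the second) with 95% confidence intervals (bars), from 4 libraries per compound. No point is filled, since no member was called, and the interval of Id2 is the widest.

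Genes that work with the members, and the cell type markers, were taken from 11 lists and followed through the 9 comparisons. These comparisons share libraries, so the values of a gene are not independent. By comparison, between 0.83% and 25.8% of all genes had an unadjusted p under 0.05 by edgeR's test. The list counts pooled over comparisons have no such share of their own and are descriptive. The progenitor marker list holds the members Nes, Vim and Sox2, whose values are counted there again. Among 15 other Sox genes, 10 stayed below 1 CPM in every library and 4 were tested (Sox5, Sox6, Sox10 and Sox12). EdgeR's test called 0 of their 36 values and DESeq2 0, with 4 at an unadjusted p under 0.05, and the median log2 difference from DMSO was -0.12 with picoxystrobin, -0.24 with pyraclostrobin and -0.07 with trifloxystrobin. Of the E proteins, the partners that ID proteins bind, Tcf3, Tcf4 and Tcf12 were tested, with 0 of 27 values called by edgeR or DESeq2 and 2 at an unadjusted p under 0.05. Id4, the remaining Id gene, was below the minimum, at 3.05 to 7.17 CPM. In the BMP and SMAD pathway 14 of 24 genes were tested. EdgeR's test called 0 of their 126 values, with 9 at an unadjusted p under 0.05, and DESeq2 called 1, a lower Bmp1 with pyraclostrobin. For other intermediate filaments (Nefm and the lamin genes Lmna, Lmnb1 and Lmnb2) edgeR's test called 0 of 36 values, with 3 at an unadjusted p under 0.05, and DESeq2 called 1, a rising Nefm trend with pyraclostrobin. Of the marker lists, edgeR's test called 0 values of 4 progenitor, 4 astrocyte, 2 neuronal and 3 oligodendrocyte lineage genes, with 2, 4, 1 and 6 values at an unadjusted p under 0.05. DESeq2 called 1 of them, a falling trend of the astrocyte aldolase gene Aldoc with pyraclostrobin. No microglial or endothelial gene reached the minimum.

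Among 14 proneural and glial transcription factor genes, 6 were tested (Hes1, Nfia, Nfib, Nfix, Stat3 and Zbtb20). EdgeR's test called 1 lower with pyraclostrobin against DMSO (1.71% of all genes called) and 1 falling with its concentration (3.17%). Of their 54 values, which come from comparisons that share libraries, 18 had an unadjusted p under 0.05 by edgeR's test. These included all 6 genes for pyraclostrobin against DMSO, where 25.8% of all genes did. The median difference of the 6 from DMSO was -0.39 for pyraclostrobin, -0.16 for picoxystrobin and -0.13 for trifloxystrobin. Zbtb20, a zinc finger factor of astrocyte differentiation, was at 395 and 400 CPM in DMSO and at 291, 260, 291 and 291 CPM with pyraclostrobin. It fell by 0.49 on the log2 scale (SE 0.111, adjusted p = 0.0455 by edgeR's test), but corrected for GC content and transcript length the value was -0.16 (adjusted p = 0.431). The call was also lost without either DMSO library (adjusted p = 0.394 and 0.282), without 300 or 1000 nM (0.138 and 0.106) and in the separate fit (0.105), with log2 values between -0.5 and -0.47. Nfia, a nuclear factor of the gliogenic switch that acts with SOX9, was at 77.1 and 77.5 CPM in DMSO and at 76.5, 65.4, 47.2 and 49.9 CPM with pyraclostrobin. Its trend was -0.45 log2 units per 10-fold concentration (SE 0.107, adjusted p = 0.0464 by edgeR's test), and the call was lost without any 1 of the 4 libraries (adjusted p between 0.0847 and 0.57). DESeq2 called 5 of the 6 with pyraclostrobin (9.57% of all genes), Nfib, Nfix, Stat3 and Zbtb20 lower and Hes1 higher. Nfia and 8 of the 9 tested members, all but Nes, had their lowest pyraclostrobin values at 300 and 1000 nM. The share of all genes with this order was not determined, so it cannot be read as particular to them. For the pyraclostrobin trend, 21.6% of all genes had an unadjusted p under 0.05 by edgeR's test.

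The gene whose log2 CPM over the 15 libraries was most like that of each member was sought among all other genes tested, by Pearson's r, as a description without a test. These were Crip2 for Sox9 (r = 0.962), Nckap5l for Id3 (r = 0.96), 4632415L05Rik for Sox11 (r = 0.962), Zfp358 for Sox4 (r = 0.935) and Mut for Nes (r = 0.941). For Vim it was Clic4 (r = 0.965), for Id2 Cdk19 (r = 0.943), for Sox2 Cox7c (r = 0.861) and for Id1 Bcar3 (r = 0.809). No member was the nearest gene of another, and Nfia was the next nearest for Sox11 (r = 0.96). The 15 points share their libraries, depth and controls, and the values are the highest of 9757 genes.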

How the data were processed

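RNA was extracted and sequenced by the authors (Lexogen SENSE total RNA kit, single-end, NextSeq500), and 16 tables of raw counts per gene, made with htseq-count, were deposited without normalization. The submitters' processing notes name Bowtie2 2.3.2.2 and mm10. The annotation and the use of strand are not given in the sources used here. All 120 pairs of libraries were compared, and 1 was identical.

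From the counts, CPM with TMM factors were computed for 15 libraries (12292390 to 18188099 counts, so that counting error adds most for the members near 10 CPM). Genes over 10 CPM on average entered edgeR's two-sided quasi-likelihood test (edgeR 4.0.16, R 4.3.3), with 1 level per compound, with a slope on log10 concentration, or with concentration as a block in the 12 libraries at matched concentrations. P-values were adjusted by Benjamini-Hochberg over all 9757 genes and called under 0.05. Standard errors come from the test statistic, and log2 CPM used a prior count of 2. The authors used DESeq2. Here DESeq2 1.42.0, RLE factors, no filter, a GC content and length offset, separate fits and left-out libraries were alternatives. The scripts were tested on simulated data. Positions are from GENCODE M21 (54092 of 54658 symbols matched).

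The members and lists were chosen with earlier results of these data known, and 1 marker gene is not reported here. Named are all members, from each list at most the 3 called genes with the largest change per comparison, and the gene most like each member. Other genes (markers, tested list genes, calls by DESeq2 and Thra) are named to describe the lists and were chosen after their values were seen.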

Additional observations from a re-analysis of the deposited data

Results flagged for a closer look

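The highest and lowest library of each compound was compared with the other libraries of the compound for each member, 30 groups of 4 libraries in all. Chance alone flags about 1 in 20 groups. In 2 groups 1 library was far from the others, and both were trifloxystrobin at 100 nM. Sox4 was at 52 CPM in this library and at 69.4 to 72.5 CPM in the other trifloxystrobin libraries, and Id1 was at 8.18 CPM against 11.9 to 12.5 CPM. The cause was not tested.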

How the results depend on the processing

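The number of members called changed for 3 of the 9 comparisons. Percentages give the share of all genes called in the same fit. For picoxystrobin against DMSO it was 0 (0.041%), and 1 (Sox9) with DESeq2 (2.4%) or without the filter on low counts (0.681%). Over the left-out picoxystrobin libraries it was 0 to 1, the 1 being Sox9 without the library at 1000 nM (27.7%). For pyraclostrobin against DMSO it was 1 (Id3, 1.71%). It was 2 with DESeq2 (Id3 and Sox9, 9.57%) and 3 without the filter (Id3, Sox9 and Sox11, 3.87%). With 300 and 1000 nM alone it was 4 (25.6%), and in the separate fit 0 (0 of all genes). Over the left-out pyraclostrobin libraries it was 0 to 3, with 3 without 30 nM (5.37%) and without 100 nM (9.23%). For the trend of pyraclostrobin it was 1 (Sox11, 3.17%). It was 2 (Sox9 and Sox11) with DESeq2 (7.57%) or the GC content and length correction (8.7%). With 300 and 1000 nM against 30 and 100 nM it was 3 (7.62%). In the separate fit it was 4 (Sox4, Sox9, Sox11 and Id2, 13.7%), and over the left-out libraries it was 0. The causes were not tested. In the other 6 comparisons it was 0 in all alternatives. No called member changed direction in any alternative. Among 842 alternative values of members not called, 755 kept their direction uncalled, 20 were called and 67 turned direction uncalled.

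The number of all genes called moved both ways. For picoxystrobin it was 4, against 230 with DESeq2, 210 without the filter, 2702 without the library at 1000 nM, 3 with RLE factors and 0 in the other 8 alternatives. For pyraclostrobin it was 167, against 934 with DESeq2, 1195 without the filter, 2500 with 300 and 1000 nM alone, 524 and 901 without 30 or 100 nM, 1 and 0 without either DMSO library, 1 without 300 or 1000 nM, and 0 in the separate fit. For the pyraclostrobin trend it was 309, against 739 with DESeq2, 1246 without the filter, 846 with the GC content and length correction, 1340 in the separate fit, 743 with 300 and 1000 nM against 30 and 100 nM, and 7, 96, 0 and 0 without 30, 100, 300 or 1000 nM. For the picoxystrobin trend it was 0, against 1 with DESeq2, 491 without the filter and 1477 without 300 nM. Between compounds it was 2, 3 and 0 (pyraclostrobin and picoxystrobin, pyraclostrobin and trifloxystrobin, picoxystrobin and trifloxystrobin), against 24, 234 and 10 with DESeq2, 415, 818 and 28 without the filter, 682, 3 and 756 without 1000 nM, 0, 158 and 0 without 100 nM, and 0 without 30 or 300 nM or in separate fits. With 2 DMSO libraries, each call against DMSO rests on 2 control values. No paired analysis was possible because the libraries of a compound are single concentrations and share no replicate label with DMSO.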

Other observations

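Of the lists, Hes1 and S100b are given here, chosen after their values were seen, and other genes of their lists lay below DMSO. The 6 tested proneural and glial factors had median log2 differences of -0.16 (picoxystrobin) and -0.39 (pyraclostrobin). With pyraclostrobin, DESeq2 called 4 of them lower and 1, Hes1, higher (9.57% of all genes called). For the 4 tested astrocyte markers, the list of S100b, the medians were 0.09 and 0.04. Hes1 and S100b thus do not stand for their lists. Hes1, a Notch effector that keeps progenitors undifferentiated, was at 45.3 and 47.1 CPM in DMSO, at 54.8 to 66.6 CPM with picoxystrobin and at 53.4 to 68.2 CPM with pyraclostrobin, and azoxystrobin was at 39.9 CPM. Its log2 differences were 0.37 and 0.4 (adjusted p = 0.172 and 0.0866 by edgeR's test), neither called, while DESeq2 called the latter. S100b, a calcium-binding protein of glia, was at 12.3 and 14.0 CPM in DMSO and at 15.4 to 20.4 CPM with picoxystrobin, with a log2 difference of 0.35 that was not called (adjusted p = 0.286).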
